A study of Mus musculus with 20 samples.

Results

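The Hedgehog pathway was followed through 9 genes (of the 23284 genes in the deposited table) across 20 libraries of tissue recombinants. The genes were chosen by name: the ligands Shh, Ihh and Dhh, the receptor Ptch1, the transducer Smo, the transcription factors Gli1, Gli2 and Gli3, and the inhibitor Hhip. All 9 were found in the table under these symbols. Of these, 7 reached a value of at least 5 in at least 4 libraries and were tested with the 13456 genes that did, while Ihh and Dhh did not.

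A tissue recombinant is a graft in which epithelium is joined to embryonic mesenchyme. Here epithelium of mice aged 2 months was joined to urogenital sinus mesenchyme (UGM) of Sprague Dawley rats, and the grafts were taken 3 months after implantation. There were 4 libraries in each of 5 groups. SVE held seminal vesicle epithelium and PE held prostate epithelium, both labelled wild-type NKX3.1. Seminal vesicle epithelium carried an NKX3.1 construct in mNKX3.1, a hairpin against UTY in UTY_sh, and both of these in mNKX3.1+UTY_sh. The meaning of the m is not stated, nor is the vector of the hairpin. For every sample the labels say that doxycycline was given for 3 months to induce NKX3.1 from an altered pTRIPZ vector. The labels call the mouse background a hybrid of 129/SvImJ and C57Bl/6J, whereas the growth protocol gives C57Bl/6J donors. Whether libraries of 1 group are from different animals is not stated, and p-values here measure a spread between libraries that may be technical.

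Hedgehog ligands are secreted proteins. When a ligand binds Ptch1, Ptch1 stops holding back Smo, and Smo then signals through the primary cilium to the Gli factors. Gli1, Ptch1 and Hhip are themselves transcribed in response, so their RNA is the usual readout of pathway activity, and Ptch1 and Hhip feed back by restraining the ligand. In the developing prostate the epithelial buds make Shh and the surrounding urogenital mesenchyme responds to it.

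Several properties of the libraries bear on what follows. Depth in M reads (M, mega), as recovered from the values, was lowest in PE (14.9 to 20.8) and mNKX3.1 (15.5 to 21.9). It was 20.3 to 25.0 in SVE, 22.5 to 24.9 in UTY_sh, and in mNKX3.1+UTY_sh between 24.0 and 29.8. Uty was not lower in the libraries labelled UTY_sh than in SVE (9.22 ± 0.23 against 9.29 ± 0.21, SD, n = 4). It was higher in PE and mNKX3.1 than in SVE, by 0.95 and 0.94, and lower in mNKX3.1+UTY_sh than in mNKX3.1, at -1.08 (adjusted p = 1.37e-07 by limma). Ehmt2 was called in no comparison, with a difference of -0.02 between PE and SVE (adjusted p = 0.723 by limma). The groups are named only as labelled. By limma's moderated test, 0 of 13456 genes differed between mNKX3.1 and PE (65 genes, 0.483%, at an unadjusted p below 0.05). Likewise 0 genes differed between UTY_sh and SVE (316, 2.35%, at an unadjusted p below 0.05) and between mNKX3.1+UTY_sh and SVE (557, 4.14%). With no difference and independent libraries, about a share of 0.05 of genes would pass that unadjusted limit. Between mNKX3.1 and PE the share was far lower, and the cause was not tested. Results of mNKX3.1 are therefore not read as a separate check on those of PE. The table does not separate transcripts of the rat mesenchyme from those of the mouse.

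Values are log2 throughout. Between 11 and 13, 100% of values corresponded to whole reads (within 0.1), but between 9 and 10 only 19.8% did, where chance gives 20%. All 9 members lay below 10, where values are no longer whole reads. How the low values were made is not given in the labels. Among the 3457 genes with a mean below 2.3, values scattered with an SD of 0.461, so the values of members near that floor include scatter of unknown origin. Levels are compared below between groups for 1 gene, never between genes.

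The ligands came first. Shh, the ligand of the prostatic buds, had values of 6.44, 5.25, 6.25 and 5.27 in SVE, 5.77, 5.65, 5.91 and 5.67 in PE, and 5.42, 5.83, 6.08 and 5.58 in mNKX3.1. UTY_sh had 4.92, 6.03, 5.26 and 5.90, and mNKX3.1+UTY_sh had 5.61, 4.97, 5.85 and 6.25. The groups overlapped throughout, and the SVE libraries fell into a high and a low pair that spanned every PE value. Between PE and SVE the difference was -0.05 (95% interval -0.69 to 0.59, limma adjusted p = 0.891), and between mNKX3.1 and SVE it was -0.08 (-0.72 to 0.56). The group means, in falling order SVE, PE, mNKX3.1, mNKX3.1+UTY_sh and UTY_sh, lay between 5.53 and 5.80, and neighbours in that order overlapped.

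Ihh, best known as the ligand of cartilage and gut, lay closer to the floor. Its values were 5.14, 3.94, 4.21 and 4.57 in PE and 5.20, 4.24, 4.96 and 4.15 in mNKX3.1. SVE had 4.09, 3.77, 3.94 and 3.32, UTY_sh had 3.48, 3.77, 3.49 and 3.23, and mNKX3.1+UTY_sh ran from 2.70 to 3.67. Every mNKX3.1 library was above every SVE library, and PE overlapped SVE only through its replicate 2. Between mNKX3.1 and SVE the libraries did not overlap, in either direction, for 54.9% of tested genes. Ihh was below the minimum for the test. When all 23284 genes were tested without a minimum, limma gave mNKX3.1 against SVE a difference of 0.86 (SE 0.29, adjusted p = 0.0233), PE against SVE 0.69 (SE 0.29, adjusted p = 0.0714) and mNKX3.1+UTY_sh against mNKX3.1 -1.49 (SE 0.29, adjusted p = 2.95e-04). Of all 23284 genes 8761, 8721 and 8972 were called in these fits, in that order.

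Dhh, the ligand that Schwann cells and Sertoli cells make, had values of 4.90, 4.19, 4.22 and 4.52 in PE and 4.84, 3.82, 3.63 and 4.37 in SVE. Its lowest and highest values were 4.42 and 4.97 in mNKX3.1, 3.79 and 4.47 in UTY_sh, and 3.94 and 4.44 in mNKX3.1+UTY_sh. All groups overlapped, mNKX3.1 and mNKX3.1+UTY_sh by the least. Without a minimum the difference of mNKX3.1 from SVE was 0.46 (SE 0.25, adjusted p = 0.170 by limma). Schwann cell and nerve markers moved between the same groups: 6 of 7 tested were higher in PE and the mean level of all 8 listed ran from 6.24 to 7.11 in PE and from 4.95 to 5.51 in SVE, and their part in the Dhh values was not tested.

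**Figure D1:**
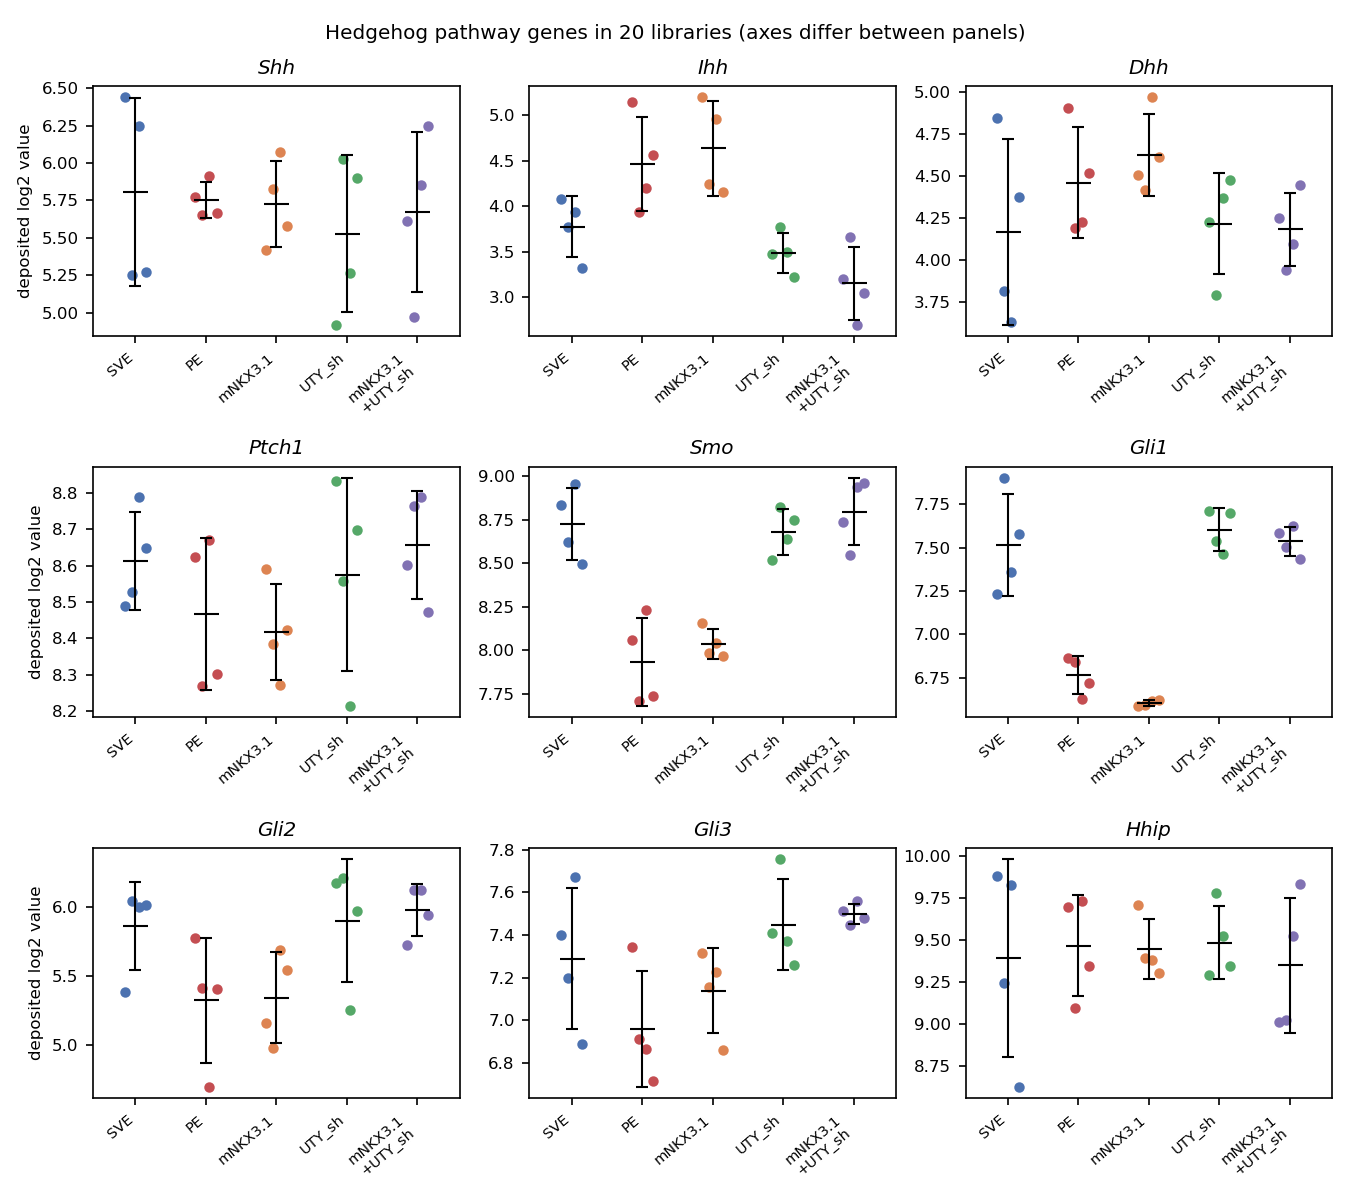
Deposited log2 value (y axis) of each Hedgehog pathway gene in every library, by group (x axis); points are libraries, and the black bar and whiskers are the mean and SD of 4. Smo and Gli1 are lower in all 8 PE and mNKX3.1 libraries than in the other 12, while Ptch1, Hhip and Shh overlap between groups.

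The receptor and the transducer behaved differently from each other. Smo, the membrane protein that carries the signal into the cell, had values of 8.84, 8.62, 8.96 and 8.50 in SVE against 8.06, 7.71, 8.23 and 7.74 in PE. The mNKX3.1 libraries had 8.16, 7.98, 8.04 and 7.97, those of UTY_sh 8.52, 8.82, 8.64 and 8.75, and those of mNKX3.1+UTY_sh 8.74, 8.55, 8.94 and 8.96. The highest PE or mNKX3.1 library, at 8.23, was below the lowest of the other 3 groups, at 8.50. By limma Smo fell by 0.79 in PE (SE 0.12, adjusted p = 2.21e-05) and by 0.69 in mNKX3.1 (SE 0.12, adjusted p = 9.82e-05) from SVE. It rose by 0.76 from mNKX3.1 to mNKX3.1+UTY_sh (SE 0.12, adjusted p = 3.52e-05). In a bulk graft fewer cells of a type and less RNA per cell cannot be told apart, which holds for every difference given here.

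Ptch1, the ligand receptor and itself a target gene, had values of 8.49, 8.53, 8.79 and 8.65 in SVE and 8.62, 8.27, 8.67 and 8.30 in PE. The lowest and highest values were 8.27 and 8.59 in mNKX3.1, 8.21 and 8.83 in UTY_sh, and 8.47 and 8.79 in mNKX3.1+UTY_sh. All groups overlapped. The difference between PE and SVE was -0.15 (95% interval -0.41 to 0.11, adjusted p = 0.317 by limma) and that between mNKX3.1 and SVE -0.20 (-0.46 to 0.07), intervals that leave out a fall as large as that of Smo.

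The upstream sequences of these membrane proteins are shown because their RNA differed in this way although they act as a pair. They are the 250 bases before the RefSeq start in the GRCm38.p6 table, 5′ to 3′ on the gene's own strand, with each CpG in capitals: chr6:29735247-29735496 on the plus strand for Smo and chr13:63565736-63565985 on the minus strand for Ptch1. Other starts of Ptch1 are not shown.
Smo: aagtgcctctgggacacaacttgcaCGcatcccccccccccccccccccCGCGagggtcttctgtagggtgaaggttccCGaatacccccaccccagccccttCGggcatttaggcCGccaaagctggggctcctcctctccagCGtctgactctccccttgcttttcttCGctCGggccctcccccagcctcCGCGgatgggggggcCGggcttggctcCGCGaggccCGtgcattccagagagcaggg
Ptch1: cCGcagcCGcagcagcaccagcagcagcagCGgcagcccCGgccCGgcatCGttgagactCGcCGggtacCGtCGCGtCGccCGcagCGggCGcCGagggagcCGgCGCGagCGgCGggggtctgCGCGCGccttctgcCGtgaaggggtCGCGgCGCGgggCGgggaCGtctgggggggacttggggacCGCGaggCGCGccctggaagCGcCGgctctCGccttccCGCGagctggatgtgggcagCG
The window of Smo held 15 CpG and that of Ptch1 41, with a GC content of 68.4% and 78.4%, against a median of 6 CpG and 52.4% over 32851 promoter windows of that length. Of the 9 members 7 had an entry in that table, and they held between 9 CpG (Dhh) and 41. The Gli-binding consensus GACCACCCA (reverse complement TGGGTGGTC), also with its middle base free as GACCNCCCA, a pattern that includes the first, was searched on both strands. It matched in none of the 7 windows (0 matches). Over all windows of the same length 0.225% held the first form and 0.868% the second, and a window without these letters tells nothing about binding elsewhere.

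Gli1, the transcription factor whose RNA is the most used readout of pathway activity, was the member with the clearest difference. Its values were 7.23, 7.90, 7.36 and 7.58 in SVE and 6.87, 6.84, 6.63 and 6.72 in PE. The mNKX3.1 values were 6.59, 6.59, 6.61 and 6.62, and the UTY_sh values 7.71, 7.54, 7.46 and 7.70. The 4 mNKX3.1+UTY_sh libraries lay between 7.44 and 7.63. No PE or mNKX3.1 library overlapped any library of the other 3 groups, and 19.4% of tested genes were lower in this way. All mNKX3.1 libraries were below all PE libraries, but the share of genes not overlapping between these groups was not computed. Limma placed Gli1 0.75 lower in PE than in SVE, at -0.75 (SE 0.11, adjusted p = 1.38e-05), and mNKX3.1 at -0.91 from SVE (SE 0.11, adjusted p = 1.47e-06). From mNKX3.1 to mNKX3.1+UTY_sh it rose by 0.93 (SE 0.11, adjusted p = 1.06e-06). Between mNKX3.1 and PE the difference of -0.16 (SE 0.11) did not pass, at adjusted p = 0.9999.

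Gli2, the main activator among the Gli factors, lay near the minimum, with values of 5.38, 6.05, 6.00 and 6.02 in SVE, 5.78, 5.41, 4.70 and 5.41 in PE, and 5.16, 4.98, 5.69 and 5.55 in mNKX3.1. UTY_sh spanned 5.26 to 6.21, and mNKX3.1+UTY_sh 5.73 to 6.13. The PE and SVE values overlapped because SVE replicate 1 was low. The difference was -0.54 between PE and SVE (95% interval -1.05 to -0.02, limma adjusted p = 0.0644) and -0.52 between mNKX3.1 and SVE (adjusted p = 0.0739). Without SVE replicate 1 both were called, at -0.70 (adjusted p = 0.0229) and -0.68 (adjusted p = 0.0265). The PE difference also passed without PE replicate 1 (adjusted p = 0.0266) or UTY_sh replicate 3 (adjusted p = 0.0397), and the mNKX3.1 difference without PE replicate 3 (0.0455), mNKX3.1 replicate 3 (0.0461) or UTY_sh replicate 3 (0.0466, all adjusted p by limma). From mNKX3.1 to mNKX3.1+UTY_sh Gli2 rose by 0.64 (SE 0.25, adjusted p = 0.0303), a call lost without mNKX3.1 replicate 1 (adjusted p = 0.0736) or 2 (0.0990), or mNKX3.1+UTY_sh replicate 2 (0.0706) or 3 (0.0709).

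Gli3, which acts mostly as a repressor when no ligand is present, had values of 7.40, 7.20, 7.67 and 6.89 in SVE and 7.34, 6.91, 6.86 and 6.72 in PE. The mNKX3.1 libraries spanned 6.86 to 7.31, those of UTY_sh 7.26 to 7.75 and those of mNKX3.1+UTY_sh 7.45 to 7.56. PE and SVE overlapped, and the difference of -0.33 (SE 0.16, limma adjusted p = 0.0775) was not called. With 1 library left out at a time it passed without SVE replicate 4 (-0.46, adjusted p = 0.0149) or PE replicate 1 (-0.46, adjusted p = 0.0167). mNKX3.1 differed from SVE by -0.15 (95% interval -0.48 to 0.18). The libraries of mNKX3.1+UTY_sh were all above those of mNKX3.1, with a difference of 0.36 at adjusted p = 0.0539. That difference passed without SVE replicate 3 or 4, PE replicate 1, mNKX3.1 replicate 1 or UTY_sh replicate 2, at adjusted p = 0.0342 to 0.0460 by limma.

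Hhip, the membrane-bound decoy that binds the ligands, is a target gene like Gli1 but was called in no comparison on the deposited scale. Its values were 9.88, 9.24, 9.83 and 8.63 in SVE, 9.70, 9.10, 9.73 and 9.34 in PE, and 9.71, 9.40, 9.38 and 9.31 in mNKX3.1. UTY_sh covered 9.29 to 9.78 and mNKX3.1+UTY_sh 9.01 to 9.83. All groups overlapped, and the group means lay between 9.35 and 9.49. The difference of PE from SVE was 0.07 (95% interval -0.43 to 0.57, adjusted p = 0.800 by limma) and that of mNKX3.1 from SVE 0.05 (-0.45 to 0.55), intervals that leave out a fall as large as that of Gli1. Hhip varied more between libraries of a group than most genes of its level, with a pooled SD of 0.37 against a median of 0.11 over 1291 genes within 0.25 of its mean. In all, 6 of 7 tested members lay above the median spread for their level: Shh and Gli2 (0.46 and 0.36 against 0.28), Ptch1 (0.19 against 0.13), Smo (0.18 against 0.13) and Gli3 (0.23 against 0.18) besides Hhip. Gli1 lay below it (0.16 against 0.18).

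Counted together, 2 of 7 tested members (Smo and Gli1) were lower in PE than in SVE and 0 were higher, where 30.4% of all tested genes were lower, 31.8% higher and 62.1% called in either direction. In mNKX3.1 against SVE the same 2 were lower and 0 higher, against 30.6% lower, 31.7% higher and 62.3% called among all tested genes. From mNKX3.1 to mNKX3.1+UTY_sh 3 of 7 rose (Smo, Gli1 and Gli2) and 0 fell, against 31.4% higher, 32.4% lower and 63.8% called. The members' median difference was -0.33, -0.20 and 0.36 in these comparisons, beside medians of 0.02, 0.02 and -0.02 over all tested genes. With 7 members tested, nothing particular to them is read from these counts. The comparisons share libraries, SVE in the first pair and mNKX3.1 in the last pair. Smo and Gli1 (2 of 7) were the members lower in every PE and mNKX3.1 library than in every other library, as were 19.4% of tested genes, and 0 members were higher in all of them, as were 20.5%. Libraries did not overlap for 48.9% of genes between PE and SVE, 54.9% between mNKX3.1 and SVE and 61.9% between mNKX3.1+UTY_sh and mNKX3.1. The 3 libraries rich in Pbsn, a prostate secretory gene (SVE replicate 1, UTY_sh replicate 3 and mNKX3.1+UTY_sh replicate 4), were then left out. This gave 3 members lower in PE and in mNKX3.1 (Gli2 added) and 4 higher in mNKX3.1+UTY_sh than in mNKX3.1 (Ptch1 added, at 0.30), with 8290, 8312 and 8407 of all tested genes called in these comparisons. The choice of libraries was not clear-cut. By the mean of 6 prostate secretory genes UTY_sh replicate 2, which was kept, stood at 9.41, and mNKX3.1+UTY_sh replicate 4 at 9.43.

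**Figure D2:**
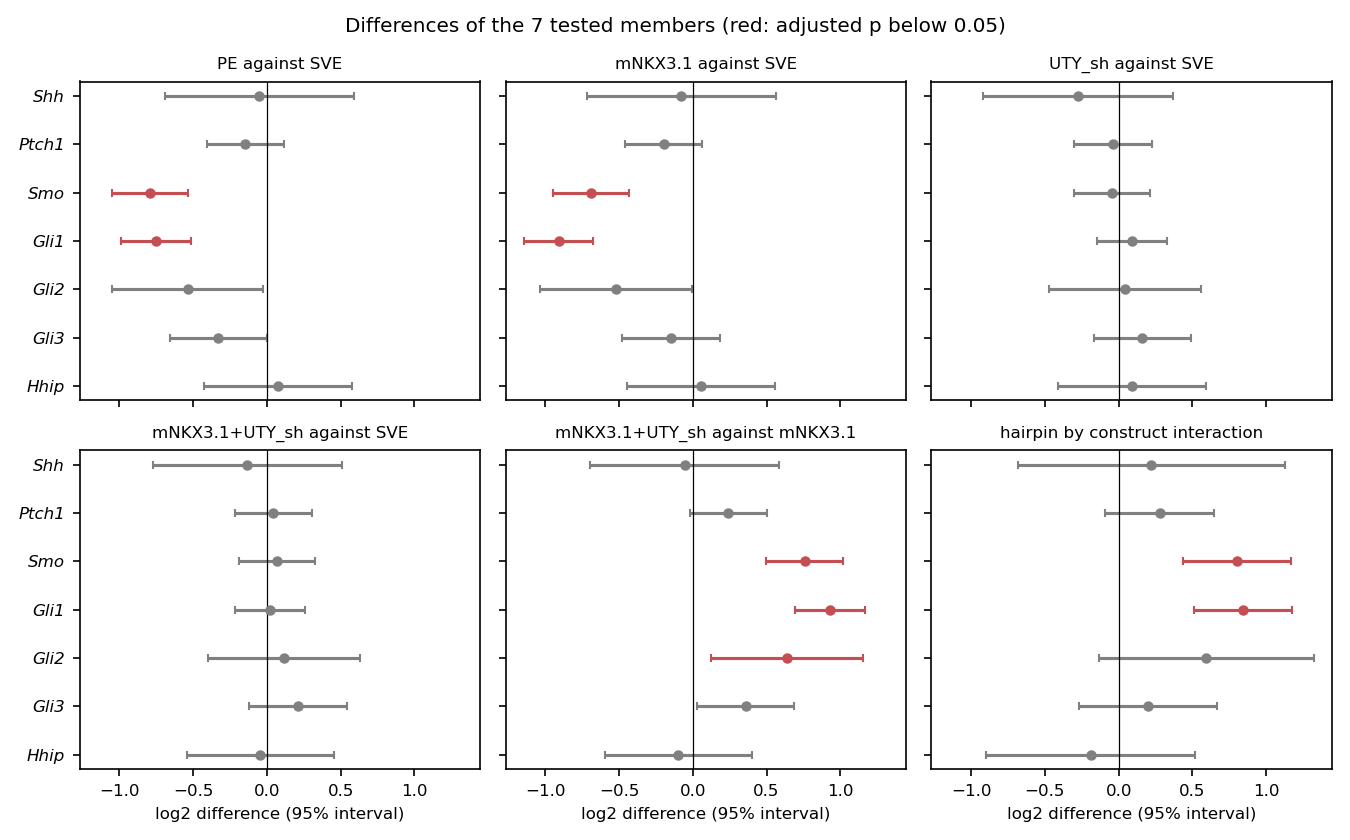
Log2 difference (x axis) with its 95% interval for the 7 tested members (y axis) in 6 comparisons, with red points where limma's adjusted p was below 0.05. Smo and Gli1 stand at -0.79 and -0.75 in PE against SVE, and all 7 intervals include 0 in UTY_sh against SVE and in mNKX3.1+UTY_sh against SVE.

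The hairpin was compared with SVE on its own and beside the construct. Against SVE, 0 of 7 members were called in UTY_sh, where 0.0% of all genes were called, and 0 members had an unadjusted p below 0.05 by limma. Gli1 differed by 0.09 (95% interval -0.15 to 0.32) and Smo by -0.05 (-0.31 to 0.21). In mNKX3.1+UTY_sh against SVE 0 members were called as well (0.0% of all genes), with Gli1 at 0.02 (-0.21 to 0.26) and Smo at 0.07 (-0.19 to 0.33). In mNKX3.1 against PE 0 members were called (0.0% of all genes), with differences between -0.16 for Gli1 and 0.18 for Gli3. The interaction asks whether the hairpin's difference with the construct was unlike that without it: it was 0.84 for Gli1 (SE 0.16, adjusted p = 2.86e-04 by limma) and 0.80 for Smo (SE 0.18, adjusted p = 0.00104). These 2 of 7 members compare with 48.1% of all tested genes called, 24.0% higher and 24.0% lower. Neither hairpin group had a gene called against SVE. The interaction thus largely repeats mNKX3.1 against SVE (-0.91 for Gli1, -0.69 for Smo) with its sign turned, on the same mNKX3.1 libraries. Uty was lower in mNKX3.1+UTY_sh than in mNKX3.1 (-1.08) but not lower in UTY_sh than in SVE (-0.07, 95% interval -0.30 to 0.16), so these values describe the libraries labelled so.

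Markers of the cells that could hold these transcripts moved between the same groups. Of 10 smooth muscle genes, 10 fell in PE, with a mean level from 11.77 to 12.24 against 12.90 to 13.57 in SVE, and 5 of 10 fibroblast and matrix genes were lower (9.76 to 10.13 against 10.17 to 10.64). Of 7 luminal epithelium genes 6 were higher and 1 lower in PE (11.82 to 11.95 against 11.19 to 11.56), of 4 basal genes 1 was higher and 3 lower (8.54 to 9.13 against 9.08 to 9.46), and of 5 endothelial genes 1 was higher and 3 lower (7.60 to 8.10 against 8.12 to 8.33). Over all tested genes 30.4% were lower and 31.8% higher in PE. Kidney genes, 5 in number, had a median value of 2.49 and a highest of 4.58, and 0 of them could be tested. Whether these markers have a part in the differences of Smo and Gli1 was not tested.

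The members were therefore also expressed relative to these lists. Relative to the fibroblast and matrix list, Gli1 differed between PE and SVE by -0.39 (adjusted p = 0.0419 by limma) and Smo by -0.43 (adjusted p = 0.00888), while the median of all genes stood at 0.38. In mNKX3.1 against SVE Gli1 stayed called at -0.50 (adjusted p = 0.0104) and Smo did not, at -0.28 (adjusted p = 0.0721). Relative to the smooth muscle list both stood higher in PE, at 0.47 for Gli1 and 0.43 for Smo, and the median of all genes then stood at 1.24. In PE against SVE 51.1% of calls over all genes were in the higher direction on the deposited scale, 80.9% relative to fibroblast and matrix genes, 96.4% relative to smooth muscle genes and 13.5% relative to luminal genes. Such a rescaling shifts all genes of a library alike, so the direction of a member on these scales follows the list chosen.

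**Figure D3:**
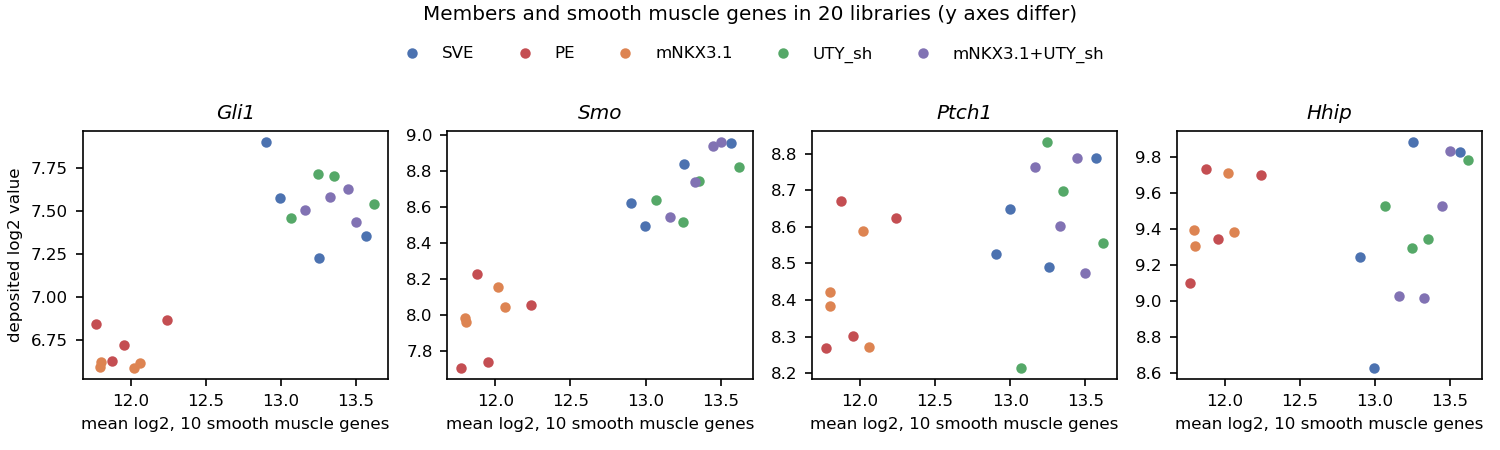
Deposited log2 value of Gli1, Smo, Ptch1 and Hhip (y axes) against the mean log2 value of 10 smooth muscle genes (x axis), with a point for each of 20 libraries coloured by group. PE and mNKX3.1 lie at 11.77 to 12.24 on the x axis and low for Gli1 and Smo, but within the range of the other groups for Ptch1 and Hhip.

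Beyond the 9 members, 39 other pathway genes were listed, of which 33 were tested. In PE 8 were higher and 17 lower than in SVE, in mNKX3.1 8 and 17, and from mNKX3.1 to mNKX3.1+UTY_sh 15 rose and 8 fell. Over all tested genes 31.8% were higher and 30.4% lower in PE, 31.7% and 30.6% in mNKX3.1, and 31.4% and 32.4% from mNKX3.1 to mNKX3.1+UTY_sh. The median difference was -0.18 in PE, against 0.02 over all genes.

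The co-receptors that help present the ligand to Ptch1 were lower. Of 4 genes in that list 4 were lower in PE and 4 in mNKX3.1, with 0 higher in either (median -0.71 in PE and in mNKX3.1). Over all tested genes 30.4% were lower and 31.8% higher in PE, and 30.6% and 31.7% in mNKX3.1. With 4 genes, nothing particular to the list is read from these counts. Boc was called at only -0.17 in PE (SE 0.06). Cdon, a cell surface protein of the immunoglobulin family, fell by 0.73 in PE (SE 0.13, adjusted p = 7.74e-05 by limma). The anchored protein Gas1 stood at -0.69 (SE 0.18). Lrp2, a large endocytic receptor that also takes up many other ligands, stood at -1.97 (SE 0.35). Lrp2 passed the minimum only through groups where it was high: it reached at most 3.91 in PE and 3.57 in mNKX3.1, against a mean of 5.34 in SVE, so a difference was built into its selection. Of 6 genes for ligand release and transport 4 were tested, and 1 was higher and 1 lower in PE: Scube1, which encodes a secreted protein, rose by 1.36 (SE 0.32, adjusted p = 0.00116 by limma), and Disp2, a relative of the ligand-releasing Dispatched protein, stood at -0.88 (SE 0.31, adjusted p = 0.0183). Scube1 passed the minimum largely through PE and mNKX3.1, where it was high, since it ran from 4.14 to 5.04 in SVE.

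Genes of the relay through the cilium moved in both directions, as did tested genes at large. Of 8 genes 2 were higher and 4 lower in PE. Over all tested genes 31.8% were higher and 30.4% lower, which holds beside the next list as well. Tulp3, which carries receptors into the cilium and restrains the pathway, rose by 2.00 (SE 0.24, adjusted p = 1.07e-06 by limma). Adrbk1, the kinase that phosphorylates Smo and other receptors, rose by 0.69 (SE 0.10), and Evc2, which binds Smo in the cilium, stood at -0.84 (SE 0.15). Of 9 genes that process or hold the Gli factors 4 were higher and 3 lower: Btrc, a ubiquitin ligase subunit, rose by 0.94 (SE 0.08, adjusted p = 2.14e-08), Spop, another ubiquitin ligase adaptor, by 0.37 (SE 0.05), and the kinase gene Stk36 stood at -1.13 (SE 0.13).

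Of 12 other genes known as targets in some tissues 8 were tested, and 1 was higher and 5 lower in PE (median -0.48). Over all tested genes 31.8% were higher and 30.4% lower. The higher gene was Hsd11b1, with a mean of 6.19 in PE and 5.70 in SVE. Ccnd1, the cell cycle gene of cyclin D1, stood at -2.33 (SE 0.20, adjusted p = 1.56e-08 by limma), Igfbp6, an insulin-like growth factor binding protein gene, at -0.80 (SE 0.08), and Bmp4, a ligand gene of the urogenital mesenchyme, at -0.70 (SE 0.12). In mNKX3.1 against SVE these were -2.41, -0.89 and -0.74, and from mNKX3.1 to mNKX3.1+UTY_sh Ccnd1 rose by 2.38, Igfbp6 by 0.88 and Bmp4 by 0.78. Such genes answer to many other signals as well, and Foxf1a, Foxf2, Foxl1 and Mycn were below the minimum.

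**Figure D4:**
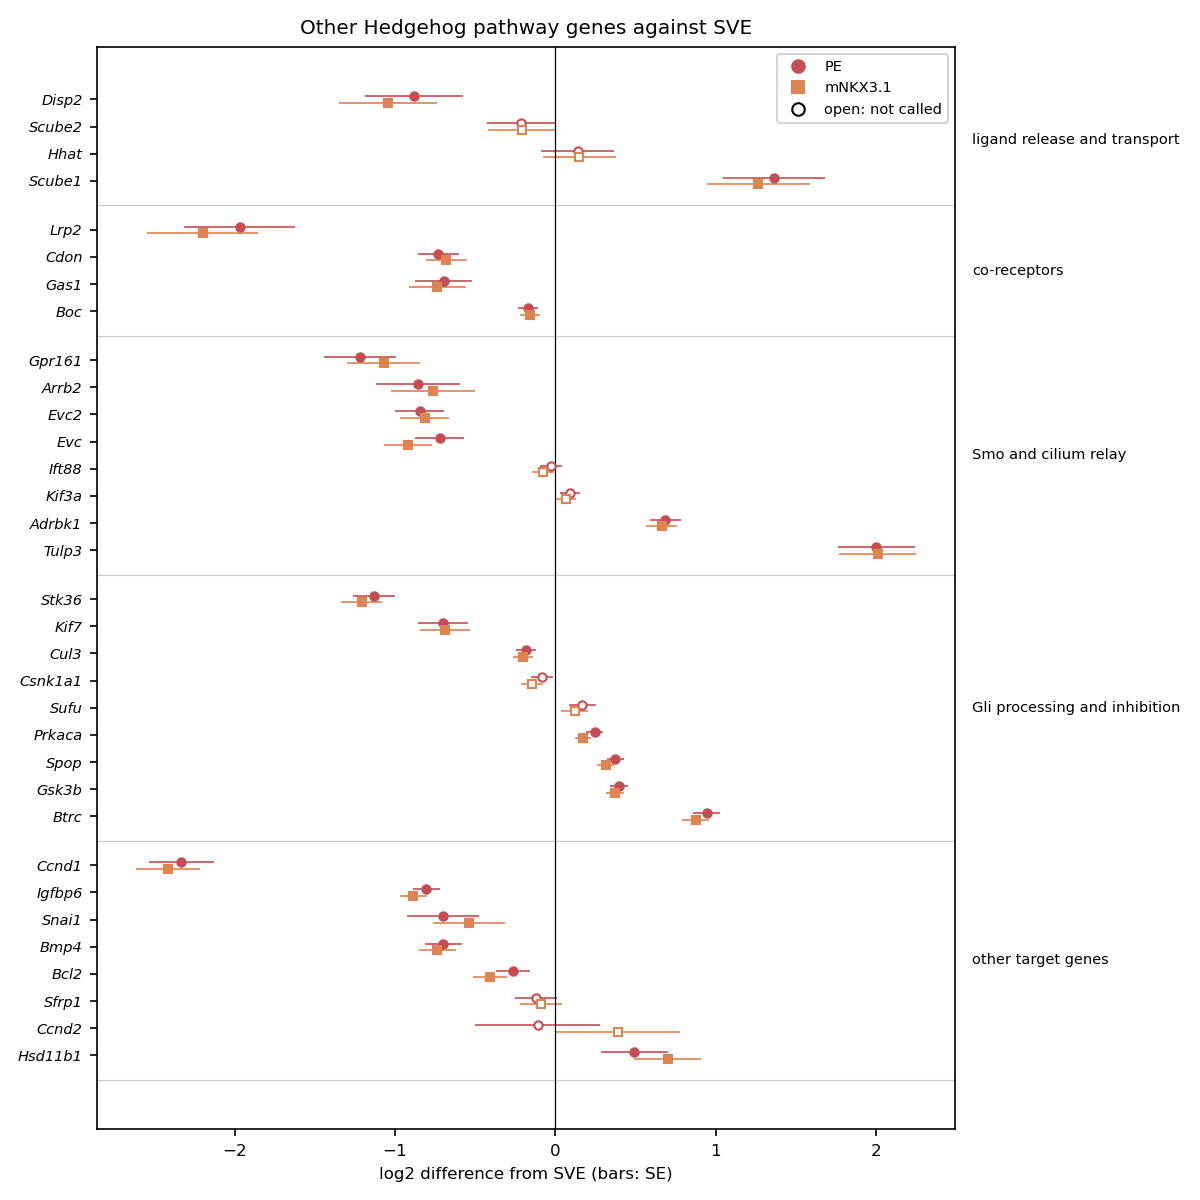
Log2 difference from SVE (x axis, bars are the SE) of the 33 tested pathway genes outside the 9 members (y axis, grouped by role), in PE (circles) and mNKX3.1 (squares), filled where limma's adjusted p was below 0.05. Lrp2, Cdon and Gas1 stand left of 0, at -1.97, -0.73 and -0.69 in PE, whereas Tulp3 stands at 2.00.

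Within groups the members did not vary as a single block. After each group's mean was taken off, Shh and Smo rose and fell together in the 12 libraries of SVE, UTY_sh and mNKX3.1+UTY_sh, with Pearson's r = 0.932 (permutation p = 7.3e-04, adjusted over 42 relations 0.0307), Spearman's rho = 0.867 (permutation p = 0.0029, adjusted 0.0714) and r = 0.897 without 2 libraries. The 2 libraries left out, here and below, were those farthest from the median of the gene named first. Libraries extreme only in the other gene were kept. Smo and Hhip had r = 0.876 in the 12 libraries (permutation p = 0.0043, adjusted 0.077), rho = 0.860 (permutation p = 0.0057) and r = 0.830 without 2 libraries. In the 8 libraries of PE and mNKX3.1 they had r = 0.917 (permutation p = 0.011, adjusted 0.077), rho = 0.929 (permutation p = 0.0068) and r = 0.890 without 2 libraries, so neither passed the adjustment. Shh and Hhip had r = 0.801 in the 12 libraries (permutation p = 0.009, adjusted 0.077), rho = 0.832 (permutation p = 0.0046) and r = 0.807 without 2 libraries. For Shh and Gli1, ligand and readout, r was -0.560 (permutation p = 0.12, adjusted 0.42), rho -0.608 (permutation p = 0.063) and r -0.644 without 2 libraries. In the 8 libraries of PE and mNKX3.1, Shh and Smo had r = 0.238 (permutation p = 0.4, adjusted 0.751), rho = 0.381 (permutation p = 0.26) and r = 0.770 without 2 libraries, so the value there rests on those libraries. The relations were picked from 42 after their values were seen, and the libraries share a normalisation.

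The genes most like 3 target genes within groups were sought among 9859 other tested genes with a mean of at least 7, by Pearson's r over 20 libraries after each group's mean was taken off. For Gli1 they were Pdxk (r = 0.865), Stard3 (0.848) and Txndc5 (0.839). For Ptch1 they were Plekha7 (0.893), Plch2 (0.888) and Map3k13 (0.888), and for Hhip Glrb (0.930), D0H4S114 (0.930) and Ldhb (0.926). No gene appeared for more than 1 of the 3. These genes are the highest of 9859 for each target and were picked by their r. No test was run on them, and no shared regulation is read from them.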

How the data were processed

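Poly-A RNA of grafts was sequenced as 20 TruSeq libraries, per the labels' protocols. Tools named without an order in the submitters' processing notes are Cufflinks 2.0.2, DESeq, TopHat2 2.0.4 and bcl2fastq 1.8.4, with genome build mm9. How reads were counted, and how rat reads were treated, is not given in the sources used here. Deposited was 1 table of log2 values, scaled per library by the authors, for 23284 genes. Reads per library were estimated from the spacing of the antilogs between 11 and 13, where all values tested were whole reads within 0.1. Low values are not whole reads, so no count test was run.

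Genes with a value of at least 5 in at least 4 libraries (13456) were fitted with limma 3.58.1 in R 4.3.3: a mean per group over all 20 libraries, a variance trend, Benjamini-Hochberg adjustment over all tested genes, and a call at adjusted p below 0.05. Correlations used 100000 permutations within groups. The fit was tested on simulated data. Of the planned label checks and listed genes, 1 each is not reported here. The 9 members are described in full. Of other pathway genes, those called in PE against SVE with the smallest p are named, up to 3 a list. Members, lists and tests were chosen with earlier results of these data known. Alternatives were other minimums, a pseudocount of 32, rescaling, other fits and left-out libraries.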

Additional observations from a re-analysis of the deposited data

Results flagged for a closer look

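Among 45 sets of 4 libraries (9 genes in 5 groups), 1 held a library far from the others: Gli2 in SVE replicate 1, at 5.38 where the other 3 libraries lay between 6.00 and 6.05. Its gap took up 0.937 of the range of that set. Chance passes the limit applied, Dixon's at the 95% level, in about 1 of 20 sets. In the libraries labelled with the hairpin, the difference beside the construct was unlike that without it for Gli1, by 0.84 (limma adjusted p = 2.86e-04), and for Smo, by 0.80 (adjusted p = 0.00104). Over all tested genes 48.1% were called in this interaction. It rests on the same mNKX3.1 libraries as mNKX3.1 against SVE and is not a separate result. Uty was not lower in UTY_sh than in SVE (-0.07), so these values describe the libraries as labelled.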

How the results depend on the processing

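The counts of members called were 2, 2, 0, 3, 0, 0 and 2 in this order: PE, mNKX3.1 and UTY_sh, each set against SVE, then mNKX3.1+UTY_sh set against mNKX3.1 and SVE, mNKX3.1 set against PE, and the interaction. Leaving out 1 library at a time gave 2 to 4, 2 to 3, 0 to 0, 2 to 4, 0 to 0, 0 to 0 and 2 to 2. In PE against SVE 4 came without PE replicate 1. A fit on the compared groups alone called 5 members in mNKX3.1+UTY_sh against mNKX3.1; the cause was not tested. Scaling to a cell type list changed most. Relative to luminal epithelium genes 5 members were called in PE and 5 in mNKX3.1 against SVE, 5 in mNKX3.1+UTY_sh against mNKX3.1 and 5 in the interaction. Relative to fibroblast and matrix genes 1 member was called in mNKX3.1 against SVE and 0 in the interaction (Gli1 0.43, adjusted p = 0.122, and Smo 0.39, adjusted p = 0.0942 by limma). Of all tested genes 8888 and 6581 were called there. In mNKX3.1+UTY_sh against mNKX3.1 Smo at 0.27 and Gli2 at 0.15 lost their calls, and Hhip at -0.59 (adjusted p = 0.0216 by limma) gained one. Relative to smooth muscle genes 7, 6, 7 and 5 members were called in the comparisons named for luminal genes. Of all tested genes 12412, 12455, 12695 and 11932 were called there. Directions of members reversed, by construction, with the shift of that list. For PE against SVE these values were 1.17 (Shh), 1.07 (Ptch1), 0.43 (Smo), 0.47 (Gli1), 0.68 (Gli2) and 0.89 (Gli3). For mNKX3.1 against SVE they were 1.18, 1.06, 0.57, 0.35, 0.74 and 1.11 in that order. From mNKX3.1 to mNKX3.1+UTY_sh they were -1.20 (Ptch1), -0.68 (Smo), -0.51 (Gli1), -0.80 (Gli2) and -1.08 (Gli3), and in the interaction -1.07 (Shh), -1.02 (Ptch1), -0.49 (Smo), -0.45 (Gli1) and -1.10 (Gli3). Hhip was called there at 1.29, 1.31, -1.54 and -1.49. The median of all genes then stood at 1.24, 1.28, -1.45 and -1.32, and the share of calls in the higher direction at 96.4%, 96.5%, 3.01% and 2.91%, against 51.1%, 50.8%, 49.2% and 50.01% as deposited. Median rescaling, the other minimums, the pseudocount, no variance trend and robust moderation left the calls of Smo and Gli1 as they were. No paired analysis was possible because the labels carry no replicate numbers. Those used here follow the order of the library codes within each group and pair no libraries across groups. Depth and the scatter of low values limit Shh, Ihh, Dhh and Gli2 most.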

Other observations

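The 4 mNKX3.1 libraries were unusually alike for Gli1, with an SD of 0.0157 where the other groups had SDs of 0.0838 to 0.293. Over the 13456 tested genes the median SD was also lowest in mNKX3.1, at 0.109, against 0.117 in mNKX3.1+UTY_sh, 0.133 in UTY_sh, 0.149 in PE and 0.166 in SVE. Gli3 was most alike in mNKX3.1+UTY_sh, with an SD of 0.0479.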
